A study of Homo sapiens with 22 samples.

Results

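This account follows 40 mouse genes of white adipocytes, listed by symbol, in the host tissue of human lung cancer xenografts: hormones, lipid droplet proteins and the enzymes that make, take up and break down fat. All 40 were among the 54532 genes of the mouse table, and all 40 passed the filter on low values that left 14287 genes to test. The tumours grew from H3122, a human ALK-rearranged lung adenocarcinoma cell line, in 2 hosts: NSG mice, which lack mature T, B and natural killer cells, and hHGF-NSG mice, the same immunodeficient strain with human HGF, the ligand of the MET receptor. In each host the tumours were either therapy-naive or had been treated with alectinib, an inhibitor of the ALK kinase, for 2 or for 6 weeks, which makes 6 groups. Bulk RNA of each tumour sample was sequenced. The deposited FPKM values of mouse genes describe the host cells in the tumour tissue. FPKM is fragments per kilobase of gene, scaled to the size of the library, so that genes of different length can be compared. The mouse values covered 3 NSG naive libraries (replicates 1, 3 and 4), 4 NSG 2-week, 3 NSG 6-week, 3 hHGF-NSG naive, 4 hHGF-NSG 2-week and 3 hHGF-NSG 6-week libraries, 20 in all; NSG naive replicate 2 and NSG 6-week replicate 4 were not analysed here. The sources used here do not give age, implantation site or alectinib dose. Nor do the labels say that the samples of a group came from separate animals, so the p-values rest on the spread among these samples, which may be technical.

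White adipocytes store triglyceride in 1 large droplet, which perilipins and CIDEC coat and enlarge. They fill it with fatty acids taken from blood lipoproteins by lipoprotein lipase or made from glucose by ACLY, ACC, FASN and SCD, and they empty it through the lipases ATGL, HSL and MGLL. The nuclear receptor PPARG and the factor C/EBPA hold this programme in place, and the cells release hormones such as adiponectin, leptin and, in mice, resistin.

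The mouse totals recovered from the deposited values were 895826 to 2018939 reads per library in naive NSG, 2255880 to 3049385 at 2 weeks and 2594895 to 3340218 at 6 weeks. In hHGF-NSG they were 1127966 to 2471749, 1639063 to 3421604 and 4356095 to 5766509, so the naive libraries were the shallowest in NSG mice, and in hHGF-NSG mice the naive and 2-week depths overlapped. In the library labelled NSG naive replicate 1, human HGF had 43 reads, whereas the other NSG libraries held 0 to 6 and the hHGF-NSG libraries 13 to 79. The host of that library is therefore uncertain, and it is named as labelled. The main counts for the NSG comparisons are also given without it, which leaves naive NSG replicates 3 and 4. Tests of single genes, except for Thrsp, are printed with it. The spread, the correlations and the human values include it too. For fits that leave out a library, the share of all tested genes called is not given. The defining white adipocyte markers Adipoq, Lep, Retn, Cfd, Plin1 and Cidec were above 0 in each of the 20 libraries. Values within a group are listed below in the order of the replicate numbers.

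Together the 40 genes took a far larger share of the mouse reads after 6 weeks of alectinib. In NSG mice they held 1.31%, 0.612% and 0.287% of mouse reads in the naive tumours, 1.43%, 0.686%, 1.63% and 1.95% at 2 weeks, and 5.80%, 4.72% and 4.998% at 6 weeks. In hHGF-NSG mice the shares were 0.451%, 1.71% and 1.23% naive, 2.78%, 2.74%, 5.95% and 1.19% at 2 weeks, and 5.55%, 9.84% and 7.32% at 6 weeks. The 6-week libraries lay above every naive library in both hosts, while the 2-week and naive libraries overlapped in both. In bulk tissue, more adipocytes and more of these RNAs per adipocyte cannot be told apart. The share of mouse reads among all reads of a library also moved, from 5.50% to 11.99% in naive NSG and 6.81% to 13.5% in naive hHGF-NSG tumours to 16.9% to 21.9% and 24.3% to 29.0% at 6 weeks, and its part in the result was not tested. The FPKM values are scaled within the mouse reads.

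**Figure D1:**
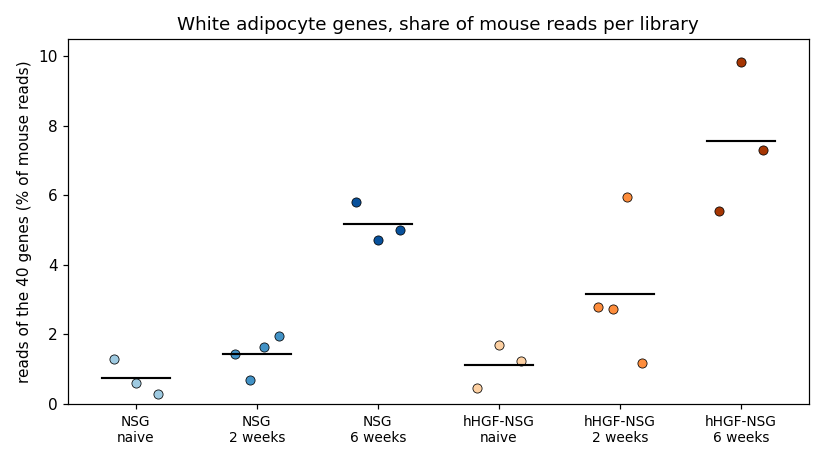
Reads of the 40 white adipocyte genes as a percentage of all mouse reads (vertical axis) in each of the 20 libraries, by host and treatment; points are libraries and lines are group means. The 3 NSG 6-week libraries lie between 4.72% and 5.80% and the 3 hHGF-NSG 6-week libraries between 5.55% and 9.84%, above every naive library, and 1 of the 4 hHGF-NSG 2-week libraries, at 5.95%, lies among them.

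Gene by gene, 38 of the 40 members rose from naive to 6 weeks in NSG mice (limma, adjusted p below 0.05 over all genes tested), where 8.81% of all tested genes were called higher, and none fell, where 8.59% were called lower. In hHGF-NSG mice 38 rose and none fell, where 9.67% of all tested genes were called higher and 8.12% lower. The median log2 change of the 40 was 2.95 in NSG and 2.82 in hHGF-NSG mice, against 0.05 and 0.06 over all tested genes. As ratios of mean FPKM the increases ran from 1.54-fold to 26.5-fold in NSG (median 6.85) and from 1.52-fold to 25.5-fold in hHGF-NSG mice (median 7.10), with 34 of 40 at 4-fold or more in each host. Every 6-week library was above every naive library for 40 of 40 members in NSG and for 39 in hHGF-NSG mice, Acly being the exception. The same holds for 17.5% and 18.6% of all tested genes. The members were chosen with earlier results of these data known, so these shares are background and not a test of the set. Without the library labelled NSG naive replicate 1, 38 members again rose in NSG mice, with a median log2 change of 3.33. The ratios then ran from 1.91-fold to 63.2-fold, and 40 members did not overlap (24.2% of all tested genes). The share of all tested genes called in that refit is not given here.

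**Figure D2:**
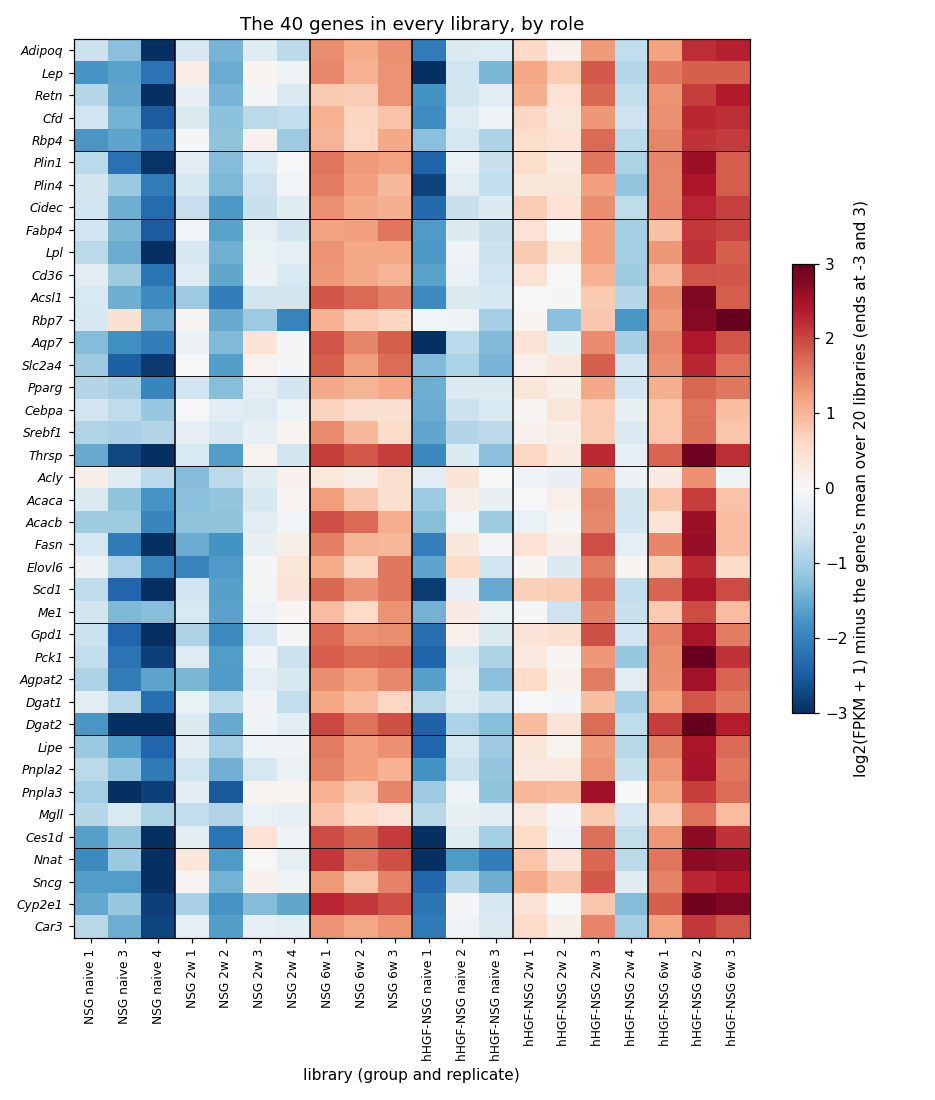
log2(FPKM + 1) of each of the 40 genes (rows, grouped by role) in each of the 20 libraries (columns, by group and replicate), as the difference from the gene's mean over the libraries, with the colour scale ending at -3 and 3. Nearly whole columns share a colour: both sets of 6-week libraries and hHGF-NSG 2-week replicate 3 are red, and NSG naive replicate 4 and hHGF-NSG naive replicate 1 are the bluest.

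The secreted proteins rose in both hosts, 5 of 5 at 6 weeks. Gene positions are whole-gene intervals of the mm10 build as the table gives them, and all 40 members are annotated as protein coding. Adipoq (ENSMUSG00000022878, chr16:23146536-23158028) encodes adiponectin, the abundant hormone of white adipocytes. In NSG mice its FPKM was 134, 88.3 and 24.95 in naive tumours, 148, 78.9, 162 and 122 at 2 weeks and 554, 454 and 543 at 6 weeks. hHGF-NSG libraries had Adipoq at 48.6, 158 and 162 in naive tumours, 322, 233, 515 and 126 at 2 weeks and 489.5, 979 and 1045 at 6 weeks. The 6-week libraries stood clear of the naive ones in both hosts, and hHGF-NSG 2-week replicate 3 was above the lowest 6-week library of that host. The ratio of the means of 6 weeks and naive was 6.28 in NSG (a log2 change of 2.93 ± 0.56 SE with adjusted p = 0.00142) and 6.82 in hHGF-NSG mice (a log2 change of 2.87 ± 0.56 SE with adjusted p = 0.00169).

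Lep (ENSMUSG00000059201, chr6:29060220-29073877) encodes leptin, the satiety hormone whose release follows fat mass. NSG tumours had 4.41, 5.05 and 2.94 FPKM when naive, 20.4, 5.51, 18.2 and 15.5 at 2 weeks and 49.1, 36.6 and 45.6 at 6 weeks. The hHGF-NSG values were 1.32, 11.1 and 6.15 in naive tumours, 40.3, 30.01, 65.1 and 9.13 at 2 weeks and 54.005, 62.4 and 62.2 at 6 weeks. In NSG mice the naive, 2-week and 6-week ranges followed each other without overlap. At 6 weeks Lep was 10.6-fold above naive in NSG (a log2 change of 3.14 ± 0.58 SE with adjusted p = 0.00105) and 9.62-fold in hHGF-NSG mice (a log2 change of 3.37 ± 0.58 SE with adjusted p = 0.000636). It had risen already at 2 weeks in hHGF-NSG mice (a log2 change of 2.38 ± 0.54 SE with adjusted p = 0.0132), where the lowest 2-week library still overlapped the naive range. Each test was refitted under 25 other settings, which left out each of the 20 libraries in turn or used a lower pseudocount, no filter on low values, a rescaling by median ratios, the replicate number as a block, or voom on the recovered reads. The Lep call was lost in 1 of 25 refits, without hHGF-NSG naive replicate 1 (adjusted p = 0.0862).

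Retn (ENSMUSG00000012705, chr8:3655770-3660110) encodes resistin, a hormone that mice make in fat. It stood at 35.4, 21.4 and 3.12 in naive tumours, 55.6, 23.9, 63.2 and 47.6 at 2 weeks and 113, 109 and 165 at 6 weeks in NSG mice. The hHGF-NSG libraries stood at 17.9, 43.8 and 51.3 in naive tumours, 137, 87.9, 214 and 38.8 at 2 weeks and 165, 276 and 338 at 6 weeks. NSG naive replicate 4 was the lowest of all 20 libraries, and the 6-week libraries did not overlap the naive ones in either host. Its 6-week log2 changes were 3.09 ± 0.66 (SE, adjusted p = 0.00315) in NSG and 2.82 ± 0.66 (adjusted p = 0.00578) in hHGF-NSG mice.

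Cfd (ENSMUSG00000061780, chr10:79890853-79892655) encodes adipsin, complement factor D, and had the highest FPKM of the secreted proteins. It measured 1331, 737 and 352 in naive tumours, 1499.9, 841, 1138 and 1194 at 2 weeks and 4071, 3109 and 3573 at 6 weeks in NSG mice. Cfd in hHGF-NSG mice was at 542, 1524 and 1799 in naive tumours, 3034, 2554, 4898 and 1295 at 2 weeks and 5100.4, 9459 and 9208 at 6 weeks. Every 6-week library was above every 2-week and every naive library of the same host. The ratio to naive at 6 weeks was 4.44 in NSG (a log2 change of 2.34 ± 0.50 SE with adjusted p = 0.00325) and 6.15 in hHGF-NSG mice (a log2 change of 2.74 ± 0.50 SE with adjusted p = 0.00104). Rbp4 (ENSMUSG00000024990, chr19:38116620-38125321), the plasma carrier of retinol, read 13.8, 15.7 and 10.8 in naive tumours, 46.7, 20.5, 53.5 and 22.5 at 2 weeks and 99.3, 75.8 and 108 at 6 weeks in NSG mice. For Rbp4 the hHGF-NSG values were 19.8, 34.2 and 24.7 in naive tumours, 71.01, 66.4, 162 and 27.3 at 2 weeks and 136, 224 and 214 at 6 weeks. The NSG 2-week libraries all lay above the naive ones, although the 2-week change did not pass the test (adjusted p = 0.0825). The log2 increases at 6 weeks were 2.73 ± 0.45 (SE, adjusted p = 0.000457) in NSG and 2.82 ± 0.45 (adjusted p = 0.000382) in hHGF-NSG mice.

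**Figure D3:**
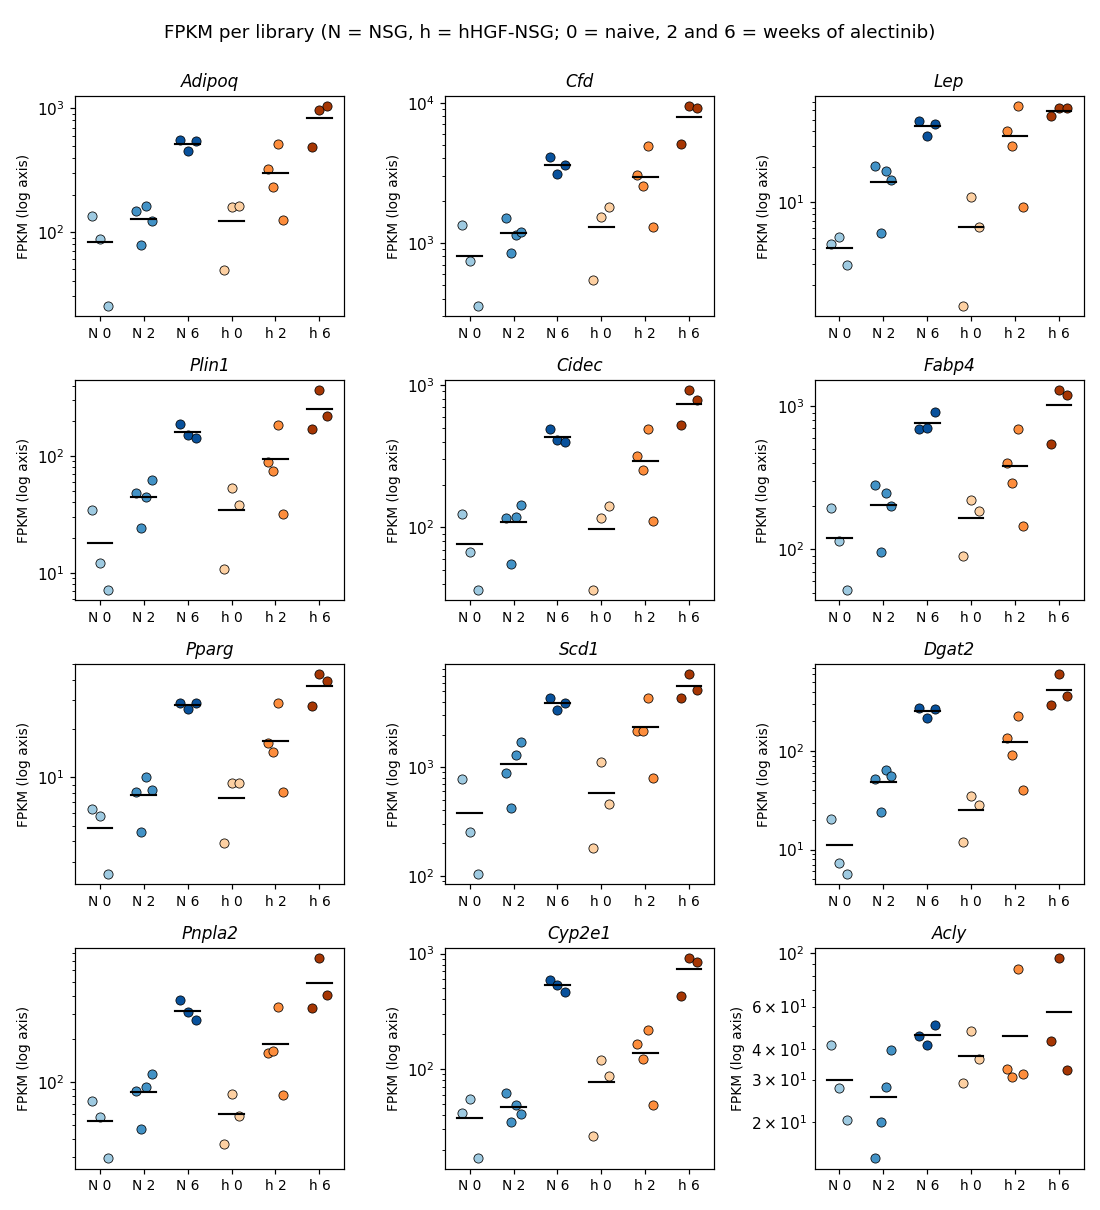
FPKM (log axis) of 12 of the 40 genes in each library, by host (N for NSG, h for hHGF-NSG) and weeks of alectinib (0 is naive); points are libraries and lines are group means. In every panel but that of Acly the 6-week points lie above the naive points of the same host.

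All 3 lipid droplet coat genes rose by 6 weeks in both hosts. Plin1 (ENSMUSG00000030546, chr7:79720218-79732903) encodes perilipin 1, which guards the droplet surface of adipocytes against lipases. Its values in NSG mice were 34.6, 12.1 and 7.06 in naive tumours, 48.3, 24.3, 44.7 and 61.96 at 2 weeks and 188, 151 and 143 at 6 weeks. In hHGF-NSG mice they were 10.8, 53.4 and 38.2 in naive tumours, 88.9, 74.8, 184 and 31.5 at 2 weeks and 171, 366 and 218 at 6 weeks. The naive and 2-week ranges overlapped in both hosts, and the naive and 6-week ranges in neither. Plin1 was 8.96-fold above naive at 6 weeks in NSG (a log2 change of 3.37 ± 0.60 SE with adjusted p = 0.00082) and 7.37-fold in hHGF-NSG mice (a log2 change of 3.03 ± 0.60 SE with adjusted p = 0.00184).

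Plin4 (ENSMUSG00000002831, chr17:56100591-56109803), a perilipin of forming droplets, gave 35.96, 23.8 and 11.5 in naive tumours, 36.1, 20.2, 34.2 and 49.4 at 2 weeks and 158, 126 and 104 at 6 weeks in NSG mice. It gave 6.89, 41.4 and 31.1 in naive tumours, 67.1, 68.1, 126 and 22.6 at 2 weeks and 145, 286 and 188 at 6 weeks in hHGF-NSG mice. The naive hHGF-NSG libraries spread more widely than the naive NSG ones, with replicate 1 far below the other two. The log2 increases at 6 weeks were 2.51 ± 0.58 (SE, adjusted p = 0.00559) and 3.17 ± 0.58 (adjusted p = 0.00104). Cidec (ENSMUSG00000030278, chr6:113424634-113435760), whose product fuses droplets into 1 large one, gave 124, 67.5 and 36.7 in naive tumours, 116, 55.8, 118 and 144 at 2 weeks and 488, 409.9 and 395 at 6 weeks in NSG mice. The hHGF-NSG libraries gave 36.2, 117 and 141 in naive tumours, 318, 253, 493 and 111 at 2 weeks and 521, 919 and 782 at 6 weeks. In NSG mice the 2-week values lay around the naive range, and in both hosts every 6-week library exceeded every earlier one. The 6-week changes were 2.65 ± 0.53 (log2 ± SE, adjusted p = 0.00198) in NSG and 3.08 ± 0.53 (adjusted p = 0.000638) in hHGF-NSG mice.

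Of the 7 genes grouped under the uptake and handling of fatty acids, glucose and glycerol, 6 rose by 6 weeks in NSG and 7 in hHGF-NSG mice. Fabp4 (ENSMUSG00000062515, chr3:10204088-10208576) encodes the fatty acid carrier of the adipocyte cytosol, also found in capillary endothelium. It stood at 194, 114 and 51.9 in naive tumours, 280.3, 96.3, 247 and 199.97 at 2 weeks and 688, 703 and 906 at 6 weeks in NSG mice. hHGF-NSG libraries had Fabp4 at 90.4, 223 and 184 in naive tumours, 399.5, 291, 694 and 145 at 2 weeks and 545, 1289.5 and 1198 at 6 weeks. The lowest hHGF-NSG 6-week library was below hHGF-NSG 2-week replicate 3 but above every naive one. Its 6-week ratios to naive were 6.39 (a log2 change of 2.85 ± 0.54 SE with adjusted p = 0.00126) and 6.09 (a log2 change of 2.60 ± 0.54 SE with adjusted p = 0.00255). Lpl (ENSMUSG00000015568, chr8:68880491-68907448), the lipase that frees fatty acids from blood lipoproteins, had 47.4, 28.97 and 9.47 in naive tumours, 59.6, 29.9, 71.99 and 68.1 at 2 weeks and 214, 185 and 188 at 6 weeks in NSG mice. It had 24.7, 76.96 and 52.6 in naive tumours, 145, 104, 196 and 40.98 at 2 weeks and 207, 377 and 291 at 6 weeks in hHGF-NSG mice. No 6-week library overlapped an earlier one of its host. The log2 changes were 2.99 ± 0.55 (SE, adjusted p = 0.000963) and 2.58 ± 0.55 (adjusted p = 0.00289).

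Cd36 (ENSMUSG00000002944, chr5:17781690-17888801), a fatty acid receptor shared with macrophages and endothelium, had 117, 70.1 and 31.8 in naive tumours, 114, 49.8, 130.1 and 107 at 2 weeks and 368, 327 and 301 at 6 weeks in NSG mice. In hHGF-NSG mice the values were 48.3, 128 and 96.8 in naive tumours, 200.3, 147, 306 and 69.8 at 2 weeks and 294, 546 and 539 at 6 weeks. Its rise was among the smaller ones of this role, 4.56-fold in NSG (adjusted p = 0.00329) and 5.05-fold in hHGF-NSG mice (adjusted p = 0.00297), without overlap of the naive and 6-week libraries. Acsl1 (ENSMUSG00000018796, chr8:46471037-46536051), which activates fatty acids with coenzyme A, had 17.2, 7.97 and 5.71 in naive tumours, 10.7, 4.96, 16.1 and 15.9 at 2 weeks and 89.5, 79.6 and 69.7 at 6 weeks in NSG mice. For hHGF-NSG mice the values were 5.65, 17.4 and 16.4 in naive tumours, 24.1, 22.8, 41.6 and 12.8 at 2 weeks and 64.7, 170.05 and 87.4 at 6 weeks. At 2 weeks it overlapped naive in both hosts, and at 6 weeks every library was above every earlier one. Acsl1 also rose between 2 and 6 weeks in both NSG (a log2 change of 2.75 ± 0.46 SE with adjusted p = 0.00392) and hHGF-NSG mice (a log2 change of 2.04 ± 0.46 SE with adjusted p = 0.0411), the latter call being lost in 11 of 25 refits, those without NSG 6-week replicate 1 or 2 or 3 or hHGF-NSG 2-week replicate 1 or 2 or 4 or hHGF-NSG 6-week replicate 2 or 3 and with a pseudocount of 0.1 or no filter or the replicate block (adjusted p = 0.0502 to 0.296).

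Rbp7 (ENSMUSG00000028996, chr4:149449687-149454978), a retinol carrier of adipocytes and endothelium, gave 17.5, 34.6 and 7.999 in naive tumours, 25.3, 8.04, 11.2 and 5.39 at 2 weeks and 52.3, 42.9 and 39.4 at 6 weeks in NSG mice. It gave 23.4, 22.2 and 11.7 in naive tumours, 25.997, 9.77, 44.3 and 6.69 at 2 weeks and 60.9, 170.2 and 203 at 6 weeks in hHGF-NSG mice. It was the member with the lowest 2-week change, with log2 values of -0.63 ± 0.59 and -0.11 ± 0.59 (SE) that did not pass the test. At 6 weeks it had not passed the test in NSG mice (a log2 change of 1.33 ± 0.63 SE with adjusted p = 0.158), although the groups did not overlap, and had risen in hHGF-NSG mice (a log2 change of 2.74 ± 0.63 SE with adjusted p = 0.00509). The difference between these responses did not pass its own test (a log2 change of 1.41 ± 0.89 SE with adjusted p = 0.797). In hHGF-NSG mice Rbp7 also rose between 2 and 6 weeks (a log2 change of 2.86 ± 0.59 SE with adjusted p = 0.0278), a call lost in 5 of 25 refits, those without hHGF-NSG 2-week replicate 2 or 4 or hHGF-NSG 6-week replicate 2 or 3 and with no filter (adjusted p = 0.0618 to 0.186).

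Aqp7 (ENSMUSG00000028427, chr4:41033074-41048139) encodes the aquaglyceroporin through which glycerol leaves the adipocyte. It had 2.22, 1.197 and 0.870 in naive tumours, 5.96, 2.18, 9.56 and 6.69 at 2 weeks and 28.2, 20.7 and 26.3 at 6 weeks in NSG mice. Aqp7 in hHGF-NSG mice was at 0, 3.55 and 2.16 in naive tumours, 9.52, 5.84, 20.3 and 2.97 at 2 weeks and 20.4, 40.7 and 28.5 at 6 weeks. hHGF-NSG naive replicate 1 held 0 reads, which allows up to 0.938 FPKM (3 reads, for counting error alone). The log2 increases at 6 weeks were 3.45 ± 0.56 (SE, adjusted p = 0.000347) in NSG and 3.61 ± 0.56 (adjusted p = 0.000289) in hHGF-NSG mice, and at 2 weeks Aqp7 was called in hHGF-NSG mice (a log2 change of 1.86 ± 0.52 SE with adjusted p = 0.0369), a call lost in 5 of 25 refits, those without hHGF-NSG naive replicate 1 or hHGF-NSG 2-week replicate 1 or 3 and with no filter or voom (adjusted p = 0.078 to 0.205). Slc2a4 (ENSMUSG00000018566, chr11:69942539-69948188) encodes GLUT4, the insulin-responsive glucose transporter of fat and muscle. Its values were 4.12, 0.973 and 0.472 in naive tumours, 9.82, 2.44, 10.6 and 9.27 at 2 weeks and 36.7, 24.6 and 33.2 at 6 weeks in NSG mice. They were 3.30, 4.59 and 3.08 in naive tumours, 10.9, 12.7, 36.4 and 6.22 at 2 weeks and 26.99, 51.1 and 32.2 at 6 weeks in hHGF-NSG mice. NSG 2-week replicate 2 stood apart from the other 3 of its group and overlapped the naive range. Slc2a4 rose in NSG mice at 2 weeks (a log2 change of 1.73 ± 0.50 SE with adjusted p = 0.0388), a call lost in 7 of 25 refits, those without NSG naive replicate 3 or 4 or NSG 2-week replicate 1 or 3 or 4 and with no filter or voom (adjusted p = 0.077 to 0.274). It also rose there at 6 weeks (a log2 change of 3.70 ± 0.53 SE with adjusted p = 0.000138), and in hHGF-NSG mice at 6 weeks (a log2 change of 2.98 ± 0.53 SE with adjusted p = 0.000825).

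All 4 regulators rose by 6 weeks in both hosts. Pparg (ENSMUSG00000000440, chr6:115360951-115490399), the nuclear receptor that drives adipocyte differentiation, stood at 6.37, 5.73 and 2.50 in naive tumours, 8.05, 4.56, 10.1 and 8.30 at 2 weeks and 28.7, 26.4 and 28.96 at 6 weeks in NSG mice. For Pparg the hHGF-NSG values were 3.89, 9.21 and 9.19 in naive tumours, 16.3, 14.2, 28.7 and 8.14 at 2 weeks and 27.7, 43.4 and 39.6 at 6 weeks. The 3 NSG 6-week values were close together, and their mean was 3.62 times the 2-week mean. At 6 weeks the ratio to naive was 5.75 (a log2 change of 2.38 ± 0.38 SE with adjusted p = 0.000312) in NSG and 4.97 (a log2 change of 2.22 ± 0.38 SE with adjusted p = 0.000565) in hHGF-NSG mice. Cebpa (ENSMUSG00000034957, chr7:35119293-35121928), which sustains the mature adipocyte and is also made by myeloid cells, had 119, 104 and 79.99 in naive tumours, 180.1, 141, 135 and 161 at 2 weeks and 285, 250.3 and 243 at 6 weeks in NSG mice. In hHGF-NSG mice it had 62.7, 113 and 129 in naive tumours, 187, 230.5, 302 and 152 at 2 weeks and 315, 552 and 334 at 6 weeks. The naive, 2-week and 6-week ranges did not overlap in either host. Its 6-week increase, 2.57-fold in NSG (adjusted p = 0.00201) and 3.95-fold in hHGF-NSG mice (adjusted p = 0.000127), was smaller than that of Pparg, and at 2 weeks it was called in hHGF-NSG mice (a log2 change of 1.11 ± 0.26 SE with adjusted p = 0.0139), a call lost in 1 of 25 refits, without hHGF-NSG naive replicate 1 (adjusted p = 0.0915).

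Srebf1 (ENSMUSG00000020538, chr11:60199089-60222581), the factor that turns on fatty acid synthesis genes, measured 21.5, 20.4 and 22.1 in naive tumours, 34.7, 29.2, 34.7 and 43.95 at 2 weeks and 112, 82.7 and 61.4 at 6 weeks in NSG mice. hHGF-NSG libraries had Srebf1 at 13.3, 21.9 and 23.7 in naive tumours, 45.1, 47.9, 70.3 and 30.4 at 2 weeks and 73.9, 132 and 73.95 at 6 weeks. The 3 naive NSG libraries lay within 1.08-fold of each other, the tightest of any member in that group, and all 2-week libraries of both hosts lay above the naive ones. Srebf1 rose by 6 weeks in NSG (a log2 change of 1.91 ± 0.29 SE with adjusted p = 0.000209) and hHGF-NSG mice (a log2 change of 2.18 ± 0.29 SE with adjusted p = 9.83e-05), and by 2 weeks in hHGF-NSG mice (a log2 change of 1.24 ± 0.27 SE with adjusted p = 0.00997), the last call being lost in 1 of 25 refits, without hHGF-NSG naive replicate 1 (adjusted p = 0.0678). Thrsp (ENSMUSG00000035686, chr7:97412938-97417730), the lipogenic protein Spot 14, had 13.3, 5.16 and 0 in naive tumours, 28.8, 11.8, 43.3 and 26.9 at 2 weeks and 170.2, 146 and 172 at 6 weeks in NSG mice. Thrsp in hHGF-NSG mice was at 9.69, 29.7 and 16.1 in naive tumours, 62.1, 48.05, 192 and 33.5 at 2 weeks and 136, 310.1 and 189.8 at 6 weeks. NSG naive replicate 4 held 0 reads, which allows up to 1.12 FPKM, so the log2 change in NSG mice depends on the 1 FPKM added before the logarithm. Thrsp had the largest ratio of any member in NSG mice, 26.5 at 6 weeks (a log2 change of 5.20 ± 0.73 SE with adjusted p = 0.000122), and a ratio of 11.5 in hHGF-NSG mice (a log2 change of 3.50 ± 0.73 SE with adjusted p = 0.0027). Leaving out the library labelled NSG naive replicate 1 gave an NSG change of 6.04 ± 0.71 SE with adjusted p = 3.4e-05.

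Of the 7 fatty acid synthesis genes 6 rose by 6 weeks in NSG and 5 in hHGF-NSG mice, and they include Acly, the member with the smallest 6-week change in both hosts. Acly (ENSMUSG00000020917, chr11:100476353-100528000), ATP citrate lyase, which supplies cytosolic acetyl-CoA, read 41.6, 27.6 and 20.5 in naive tumours, 14.2, 20.1, 28.1 and 39.74 at 2 weeks and 45.5, 41.7 and 50.6 at 6 weeks in NSG mice. It read 28.97, 47.6 and 36.3 in naive tumours, 33.3, 30.6, 85.6 and 31.7 at 2 weeks and 43.2, 94.98 and 32.96 at 6 weeks in hHGF-NSG mice. Naive and 6-week libraries overlapped in hHGF-NSG mice, and hHGF-NSG 2-week replicate 3 and 6-week replicate 2 stood far above the other libraries of that host. Acly passed the test in none of the 11 comparisons: its 6-week log2 changes were 0.66 ± 0.42 (SE, adjusted p = 0.31) and 0.47 ± 0.42 (adjusted p = 0.495).

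Acaca (ENSMUSG00000020532, chr11:84129672-84401651) and Acacb (ENSMUSG00000042010, chr5:114146535-114250761) encode acetyl-CoA carboxylases, of which the first feeds fatty acid synthesis and the second restrains fatty acid oxidation. Acaca stood at 7.66, 4.10 and 2.45 in naive tumours, 3.98, 4.24, 7.45 and 11.5 at 2 weeks and 27.02, 19.6 and 15.5 at 6 weeks in NSG mice. For Acaca the hHGF-NSG values were 4.50, 12.2 and 9.15 in naive tumours, 10.7, 11.997, 32.3 and 7.11 at 2 weeks and 19.9, 48.5 and 20.3 at 6 weeks. Acaca rose 4.37-fold in NSG (adjusted p = 0.00881) and 3.43-fold in hHGF-NSG mice (adjusted p = 0.027). The hHGF-NSG call was lost without hHGF-NSG naive replicate 1 (adjusted p = 0.129) or 6-week replicate 2 (0.151) and with no filter (0.0588), and the NSG call without NSG naive replicate 4 (0.0508). Acacb was lower in level, at 1.63, 1.64 and 0.426 in naive tumours, 1.39, 1.399, 3.36 and 4.196 at 2 weeks and 20.1, 17.02 and 10.8 at 6 weeks in NSG mice. In hHGF-NSG mice it was at 1.28, 4.24 and 1.63 in naive tumours, 3.78, 4.68, 13.96 and 2.74 at 2 weeks and 6.37, 32.2 and 9.52 at 6 weeks. At 6 weeks hHGF-NSG replicate 2 was several times the other 2 libraries of its group, and without it the hHGF-NSG call was lost (adjusted p = 0.0735). The log2 changes at 6 weeks were 2.94 ± 0.54 (SE, adjusted p = 0.000928) and 2.12 ± 0.54 (adjusted p = 0.00976).

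Fasn (ENSMUSG00000025153, chr11:120805846-120824547), fatty acid synthase, measured 63.9, 20.6 and 10.3 in naive tumours, 32.1, 26.1, 79.2 and 105 at 2 weeks and 264, 188 and 185 at 6 weeks in NSG mice. hHGF-NSG libraries had Fasn at 21.6, 116 and 87.8 in naive tumours, 124, 105, 354 and 76.9 at 2 weeks and 257, 570.4 and 177 at 6 weeks. hHGF-NSG 2-week replicate 3 was above 2 of the 3 6-week libraries of its host. Fasn rose by 6 weeks in NSG (a log2 change of 3.07 ± 0.71 SE with adjusted p = 0.00534) and in hHGF-NSG mice (a log2 change of 2.27 ± 0.71 SE with adjusted p = 0.0314). The latter call was lost without hHGF-NSG naive replicate 1 (adjusted p = 0.174), 6-week replicate 1 (0.0566) or 6-week replicate 2 (0.151) and with no filter (0.0686). Elovl6 (ENSMUSG00000041220, chr3:129532355-129638495), which lengthens the palmitate that Fasn makes, had 3.41, 1.58 and 0.255 in naive tumours, 0.269, 0.539, 3.84 and 5.41 at 2 weeks and 9.85, 6.84 and 14.1 at 6 weeks in NSG mice. Elovl6 in hHGF-NSG mice was at 0.687, 6.34 and 2.38 in naive tumours, 4.23, 2.80, 13.7 and 4.203 at 2 weeks and 7.22, 22.9 and 6.36 at 6 weeks. It was among the lowest members, and hHGF-NSG naive replicate 2 nearly reached the lowest 6-week library. Elovl6 passed the test at 6 weeks in NSG mice (a log2 change of 2.16 ± 0.68 SE with adjusted p = 0.0339) and not in hHGF-NSG mice (a log2 change of 1.70 ± 0.68 SE with adjusted p = 0.0927). The NSG call was lost in 7 of 25 refits, those without NSG naive replicate 3 or 4 or NSG 6-week replicate 1 or 3 and with no filter, the replicate block or voom (adjusted p = 0.0649 to 0.146).

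Scd1 (ENSMUSG00000037071, chr19:44394451-44407709), stearoyl-CoA desaturase, which makes the oleate of stored fat, contributed 16.4% to 44.2% of the members' reads in a library. Its FPKM was 775, 253 and 103 in naive tumours, 887, 422, 1290.2 and 1725 at 2 weeks and 4327, 3399 and 3928 at 6 weeks in NSG mice. For Scd1 the hHGF-NSG values were 181, 1108 and 457 in naive tumours, 2142, 2175, 4377 and 788 at 2 weeks and 4379, 7196 and 5109 at 6 weeks. The naive libraries spread widely in both hosts, and no 6-week library overlapped an earlier one, the nearest being hHGF-NSG 2-week replicate 3 and 6-week replicate 1. The ratios to naive at 6 weeks were 10.3 (a log2 change of 3.82 ± 0.71 SE with adjusted p = 0.00105) and 9.56 (a log2 change of 3.59 ± 0.71 SE with adjusted p = 0.0017). Me1 (ENSMUSG00000032418, chr9:86581371-86695953), malic enzyme, a source of NADPH for fatty acid synthesis, had 22.5, 12.3 and 13.01 in naive tumours, 24.04, 10.3, 29.6 and 34.5 at 2 weeks and 63.7, 51.05 and 85.5 at 6 weeks in NSG mice. In hHGF-NSG mice it had 11.7, 39.3 and 28.6 in naive tumours, 31.9, 21.3, 96.96 and 20.4 at 2 weeks and 57.6, 132 and 64.2 at 6 weeks. The 6-week libraries were above the naive ones in both hosts, with hHGF-NSG 2-week replicate 3 among them. Me1 rose in NSG (a log2 change of 2.02 ± 0.54 SE with adjusted p = 0.0135) and hHGF-NSG mice (a log2 change of 1.69 ± 0.54 SE with adjusted p = 0.035). The NSG call was lost without NSG naive replicate 3 (adjusted p = 0.0510) or NSG 6-week replicate 3 (0.0595). The hHGF-NSG call was lost without hHGF-NSG naive replicate 1 (0.176) or hHGF-NSG 6-week replicate 2 (0.166) or 3 (0.0593) and with no filter (0.0735).

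All 5 triglyceride synthesis genes rose by 6 weeks in both hosts, Dgat2 most. Gpd1 (ENSMUSG00000023019, chr15:99717515-99725005), which makes glycerol 3-phosphate from glycolysis, gave 34.02, 9.53 and 5.26 in naive tumours, 27.9, 13.7, 37.9 and 52.3 at 2 weeks and 179, 139.8 and 144 at 6 weeks in NSG mice. hHGF-NSG libraries had Gpd1 at 10.4, 60.3 and 40.01 in naive tumours, 70.6, 76.5, 204 and 36.1 at 2 weeks and 150.1, 301 and 159 at 6 weeks. The naive libraries of each host differed several-fold among themselves and stayed below the 6-week ones. The log2 changes were 3.55 ± 0.67 (SE, adjusted p = 0.0012) and 2.66 ± 0.67 (adjusted p = 0.00916), the latter lost without hHGF-NSG naive replicate 1 (adjusted p = 0.0626) or 6-week replicate 2 (0.0507). Pck1 (ENSMUSG00000027513, chr2:173153048-173159273), which makes glycerol 3-phosphate from pyruvate in fat, gave 50.4, 17.4 and 11.2 in naive tumours, 64.5, 25.8, 77.2 and 53.9 at 2 weeks and 296, 271 and 282 at 6 weeks in NSG mice. It gave 15.2, 63.97 and 43.8 in naive tumours, 104, 88.4, 211 and 37.8 at 2 weeks and 224, 749 and 387 at 6 weeks in hHGF-NSG mice. Each 6-week library was above every earlier library of its host, and the ratios to naive were 10.7 (adjusted p = 0.000509) and 11.1 (adjusted p = 0.000801).

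Agpat2 (ENSMUSG00000026922, chr2:26593057-26604417) adds the second acyl chain to glycerol phosphate. It read 22.7, 9.54 and 14.3 in naive tumours, 16.6, 13.01, 36.5 and 31.5 at 2 weeks and 119, 103 and 122 at 6 weeks in NSG mice. Agpat2 in hHGF-NSG mice was at 13.7, 35.3 and 17.9 in naive tumours, 66.1, 48.7, 133 and 35.2 at 2 weeks and 117, 258 and 150.1 at 6 weeks. Its 2-week level passed the test in hHGF-NSG mice (a log2 change of 1.55 ± 0.43 SE with adjusted p = 0.0357), where the lowest 2-week library was just below the highest naive one. The 2-week call was lost in 6 of 25 refits, those without hHGF-NSG naive replicate 1 or 3 or hHGF-NSG 2-week replicate 1 or 3 and with no filter or the replicate block (adjusted p = 0.0522 to 0.157). At 6 weeks it had risen 7.39-fold (adjusted p = 0.000325) and 7.86-fold (adjusted p = 0.000313). The acyltransferases Dgat1 (ENSMUSG00000022555, chr15:76502015-76511953) and Dgat2 (ENSMUSG00000030747, chr7:99153658-99182719) complete the triglyceride. Dgat1 read 11.9, 8.12 and 2.42 in naive tumours, 13.3, 8.32, 14.1 and 8.72 at 2 weeks and 35.2, 29.8 and 23.9 at 6 weeks in NSG mice. For Dgat1 the hHGF-NSG values were 8.10, 11.4 and 9.38 in naive tumours, 15.3, 14.7, 29.4 and 7.08 at 2 weeks and 35.9, 59.4 and 47.9 at 6 weeks. Its 6-week ratios to naive, 3.97 (adjusted p = 0.00255) and 4.96 (adjusted p = 0.00152), were below the median of the members in both hosts.

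Dgat2 read 20.2, 7.32 and 5.59 in naive tumours, 51.5, 23.9, 63.8 and 55.2 at 2 weeks and 275, 216 and 265 at 6 weeks in NSG mice. The hHGF-NSG libraries read 12.04, 35.3 and 28.1 in naive tumours, 135, 91.1, 225 and 40.3 at 2 weeks and 296, 603 and 362 at 6 weeks. The naive, 2-week and 6-week ranges did not overlap in either host. Dgat2 had the smallest 6-week p of the members in NSG mice and was called at 2 weeks in both hosts. Its log2 changes at 2 weeks were 2.15 ± 0.50 (SE, adjusted p = 0.0127) in NSG and 2.12 ± 0.50 (adjusted p = 0.0162) in hHGF-NSG mice. The NSG call was lost in 2 of 25 refits, those without NSG naive replicate 3 or 4 (adjusted p = 0.0567 to 0.0705), and the hHGF-NSG call was lost in 2 of 25 refits, those without hHGF-NSG naive replicate 1 or hHGF-NSG 2-week replicate 3 (adjusted p = 0.0505 to 0.0962). At 6 weeks they were 4.58 ± 0.54 (adjusted p = 1.97e-05) and 4.07 ± 0.54 (adjusted p = 9.52e-05), which as ratios of the means are 22.9 and 16.7.

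The lipolysis genes rose as well, 5 of 5 at 6 weeks in both hosts. Lipe (ENSMUSG00000003123, chr7:25379527-25398710) encodes hormone-sensitive lipase. It had 18.9, 12.5 and 7.25 in naive tumours, 32.98, 20.2, 38.2 and 39.1 at 2 weeks and 126, 99.8 and 109 at 6 weeks in NSG mice. In hHGF-NSG mice it had 7.21, 28.9 and 19.02 in naive tumours, 53.4, 45.2, 103 and 23.2 at 2 weeks and 118, 231 and 139 at 6 weeks. The naive and 2-week ranges of NSG mice did not overlap, and the 2-week change there had an adjusted p of 0.0758. Lipe passed the test at 2 weeks in hHGF-NSG mice (a log2 change of 1.56 ± 0.44 SE with adjusted p = 0.0393) and at 6 weeks in NSG (a log2 change of 3.11 ± 0.47 SE with adjusted p = 0.000219) and hHGF-NSG mice (a log2 change of 3.21 ± 0.47 SE with adjusted p = 0.000213). Its 2-week call was lost in 6 of 25 refits, those without hHGF-NSG naive replicate 1 or 3 or hHGF-NSG 2-week replicate 1 or 2 or 3 and with no filter (adjusted p = 0.0531 to 0.216). Pnpla2 (ENSMUSG00000025509, chr7:141455198-141460743) encodes ATGL, which takes the first fatty acid off a triglyceride. It stood at 74.3, 56.8 and 29.3 in naive tumours, 86.2, 47.4, 92.4 and 114 at 2 weeks and 371, 306 and 269 at 6 weeks in NSG mice. hHGF-NSG libraries had Pnpla2 at 37.2, 83.2 and 58.5 in naive tumours, 160.1, 164, 337 and 81.3 at 2 weeks and 329, 729 and 403 at 6 weeks. In hHGF-NSG mice 3 of the 4 2-week libraries were above every naive one and it was called at 2 weeks (a log2 change of 1.52 ± 0.42 SE with adjusted p = 0.0351), a call lost in 6 of 25 refits, those without hHGF-NSG naive replicate 1 or 3 or hHGF-NSG 2-week replicate 1 or 2 or 3 and with no filter (adjusted p = 0.0611 to 0.161). The 6-week ratios were 5.90 (adjusted p = 0.000543) and 8.17 (adjusted p = 0.000222).

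Pnpla3 (ENSMUSG00000041653, chr15:84167837-84187236), a relative of ATGL that lipogenic signals induce, had 6.07, 0 and 1.06 in naive tumours, 10.3, 1.49, 14.4 and 14.4 at 2 weeks and 28.5, 23.8 and 38.7 at 6 weeks in NSG mice. Pnpla3 in hHGF-NSG mice was at 5.71, 11.8 and 5.18 in naive tumours, 27.5, 26.5, 81.5 and 13.2 at 2 weeks and 31.1, 59.03 and 44.3 at 6 weeks. NSG naive replicate 3 held 0 reads, which allows up to 2.19 FPKM. The highest library of all was hHGF-NSG 2-week replicate 3, above every 6-week library. Pnpla3 rose by 6 weeks in NSG (a log2 change of 3.65 ± 0.70 SE with adjusted p = 0.00139) and hHGF-NSG mice (a log2 change of 2.45 ± 0.70 SE with adjusted p = 0.0206). The latter call was lost without hHGF-NSG naive replicate 1 or 3 or 6-week replicate 2 or 3 (adjusted p = 0.0584 to 0.0814) and with a pseudocount of 0.1 (0.0995). Mgll (ENSMUSG00000033174, chr6:88724412-88828360), which frees the last fatty acid and is made by many cell types, had 39.8, 53.4 and 37.2 in naive tumours, 43.3, 38.7, 63.05 and 61.8 at 2 weeks and 132, 109.6 and 99.6 at 6 weeks in NSG mice. For Mgll the hHGF-NSG values were 40.6, 62.4 and 58.6 in naive tumours, 89.6, 70.7, 126 and 51.6 at 2 weeks and 124, 227 and 140.3 at 6 weeks. Its increase at 6 weeks was small for a member but had a low spread: log2 1.38 ± 0.29 (SE, adjusted p = 0.00288) and 1.56 ± 0.29 (adjusted p = 0.00117). Ces1d (ENSMUSG00000056973, chr8:93166068-93197838), a carboxylesterase with triglyceride hydrolase activity, had 11.3, 15.7 and 3.12 in naive tumours, 29.4, 7.15, 50.02 and 33.03 at 2 weeks and 147, 123 and 162 at 6 weeks in NSG mice. In hHGF-NSG mice it had 1.87, 28.5 and 17.7 in naive tumours, 56.3, 34.2, 117 and 22.1 at 2 weeks and 93.3, 243 and 168 at 6 weeks. The naive libraries of hHGF-NSG mice differed 15.2-fold, the widest of the members with no library at 0 in that group. Ces1d was 14.3-fold (adjusted p = 0.00181) and 10.48-fold (adjusted p = 0.00254) above naive at 6 weeks. Other carboxylesterases lie next to Ces1d in the genome with similar sequences, and how reads were shared among them is not given in the sources used here.

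Lastly, the 4 remaining members, abundant in mouse fat and of more varied function, rose by 6 weeks in both hosts. Nnat (ENSMUSG00000067786, chr2:157560078-157562522) encodes neuronatin, an imprinted membrane protein. Its values were 15.7, 27.8 and 5.83 in naive tumours, 77.8, 18.3, 62.4 and 50.5 at 2 weeks and 273, 194 and 235 at 6 weeks in NSG mice. hHGF-NSG libraries had Nnat at 6.28, 18.4 and 13.8 in naive tumours, 109.6, 81.1, 205 and 34.5 at 2 weeks and 190.2, 402 and 391 at 6 weeks. All 2-week libraries of hHGF-NSG mice were above the naive ones, and NSG 2-week replicate 2 lay within the naive range. Nnat was called at 2 weeks in hHGF-NSG mice (a log2 change of 2.82 ± 0.56 SE with adjusted p = 0.00578) and had there the largest ratio of any member, 25.5 at 6 weeks (a log2 change of 4.61 ± 0.60 SE with adjusted p = 8.67e-05). In NSG mice the ratio was 14.2 (a log2 change of 3.97 ± 0.60 SE with adjusted p = 0.000216). Sncg (ENSMUSG00000023064, chr14:34370274-34374789), gamma-synuclein, stood at 42.6, 42.4 and 8.67 in naive tumours, 146, 51.1, 149.6 and 127 at 2 weeks and 337, 249 and 391 at 6 weeks in NSG mice. Sncg in hHGF-NSG mice was at 25.9, 75.6 and 49.3 in naive tumours, 299, 242, 496 and 107 at 2 weeks and 387, 665 and 727 at 6 weeks. All 2-week libraries were above the naive ones in both hosts. With Dgat2 it was 1 of the 2 members called at 2 weeks in both NSG (a log2 change of 2.06 ± 0.54 SE with adjusted p = 0.0252) and hHGF-NSG mice (a log2 change of 2.41 ± 0.54 SE with adjusted p = 0.0122). The first call was lost in 5 of 25 refits, those without NSG naive replicate 4 or NSG 2-week replicate 1 or 3 and with no filter or voom (adjusted p = 0.0575 to 0.147), and the second was lost in 1 of 25 refits, without hHGF-NSG naive replicate 1 (adjusted p = 0.0726). At 6 weeks it was 10.4-fold (adjusted p = 0.000347) and 11.8-fold (adjusted p = 0.000379) above naive.

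Cyp2e1 (ENSMUSG00000025479, chr7:140763739-140774987), a cytochrome P450 of liver and fat, had 41.5, 54.9 and 16.7 in naive tumours, 61.3, 34.97, 48.6 and 40.4 at 2 weeks and 594, 534 and 464 at 6 weeks in NSG mice. For Cyp2e1 the hHGF-NSG values were 26.2, 119.7 and 86.6 in naive tumours, 163, 123, 219 and 48.7 at 2 weeks and 427, 909.8 and 847 at 6 weeks. The NSG 2-week libraries lay in and near the naive range, and the 6-week libraries of both hosts were far above both. Cyp2e1 rose by 6 weeks in NSG (a log2 change of 3.93 ± 0.54 SE with adjusted p = 9.18e-05) and hHGF-NSG mice (a log2 change of 3.39 ± 0.54 SE with adjusted p = 0.000346), and between 2 and 6 weeks it had the largest change of any member in NSG mice (a log2 change of 3.51 ± 0.50 SE with adjusted p = 0.00115). It rose in that interval in hHGF-NSG mice as well (a log2 change of 2.50 ± 0.50 SE with adjusted p = 0.0243), a call lost in 5 of 25 refits, those without hHGF-NSG 2-week replicate 2 or 4 or hHGF-NSG 6-week replicate 2 or 3 and with no filter (adjusted p = 0.0554 to 0.175). Car3 (ENSMUSG00000027559, chr3:14863512-14872523), a carbonic anhydrase abundant in mouse fat and slow muscle, had 402, 261 and 105 in naive tumours, 605, 230.1, 584 and 578 at 2 weeks and 1831, 1608 and 1824 at 6 weeks in NSG mice. In hHGF-NSG mice it had 166, 656 and 534 in naive tumours, 1081, 814, 1993 and 364 at 2 weeks and 1646, 3115 and 2670.0 at 6 weeks. NSG 2-week replicate 2 lay far below the other 3 of its group, and hHGF-NSG 2-week replicate 3 was above 1 of the 3 6-week libraries. Its 6-week log2 changes were 2.97 ± 0.59 (SE, adjusted p = 0.00174) and 2.62 ± 0.59 (adjusted p = 0.00424).

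At 2 weeks most members had positive changes and few passed the test. The 2-week and 6-week comparisons of a host share the same naive libraries. The members rise and fall together between libraries, so counts of positive changes are not independent results. In NSG mice 38 of 40 log2 changes were positive, with a median of 0.87, and 4 members were called higher (16 at an unadjusted p under 0.05, as were 21.8% of all tested genes), where 3.32% of all tested genes were called higher: Sncg, Dgat2, Thrsp and Slc2a4. In hHGF-NSG mice 39 were positive, with a median of 1.33, and 10 were called higher (29 unadjusted, against 22.6%), where 3.49% of all tested genes were: Sncg, Cebpa, Pnpla2, Dgat2, Nnat, Agpat2, Lipe, Srebf1, Lep and Aqp7. Of these calls, that of Nnat in hHGF-NSG mice alone held in all 25 refits. The Thrsp call in NSG mice (a log2 change of 2.56 ± 0.69 SE with adjusted p = 0.0275) was lost in 5 of 25 refits, those without NSG naive replicate 4 or NSG 2-week replicate 1 or 3 and with no filter or voom (adjusted p = 0.0634 to 0.17). No member was called lower in either host, against 4.48% and 3.56% of all tested genes. Every 2-week library was above every naive one for 7 members in NSG and 8 in hHGF-NSG mice, against 8.26% and 8.55% of all tested genes. The NSG count rested on single libraries: it was 8 once the library labelled NSG naive replicate 1 was left out, 8 without NSG 2-week replicate 2, 7 without hHGF-NSG 2-week replicate 4, 1 without NSG 2-week replicate 1 or 3, and 0 without NSG naive replicate 4. The hHGF-NSG count was 17 without hHGF-NSG 2-week replicate 4, 6 without 2-week replicate 1, 5 without 2-week replicate 3 and 1 without hHGF-NSG naive replicate 1. Shares of all tested genes called in these refits are not given. With the library labelled NSG naive replicate 1 left out, 20 members had no overlap in NSG mice (14.6% of all tested genes). The difference between the hosts in the 2-week response passed the test for 0 members by limma (0% of all tested genes), 0 at an unadjusted p under 0.05 and 0 by voom on the recovered reads.

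**Figure D4:**
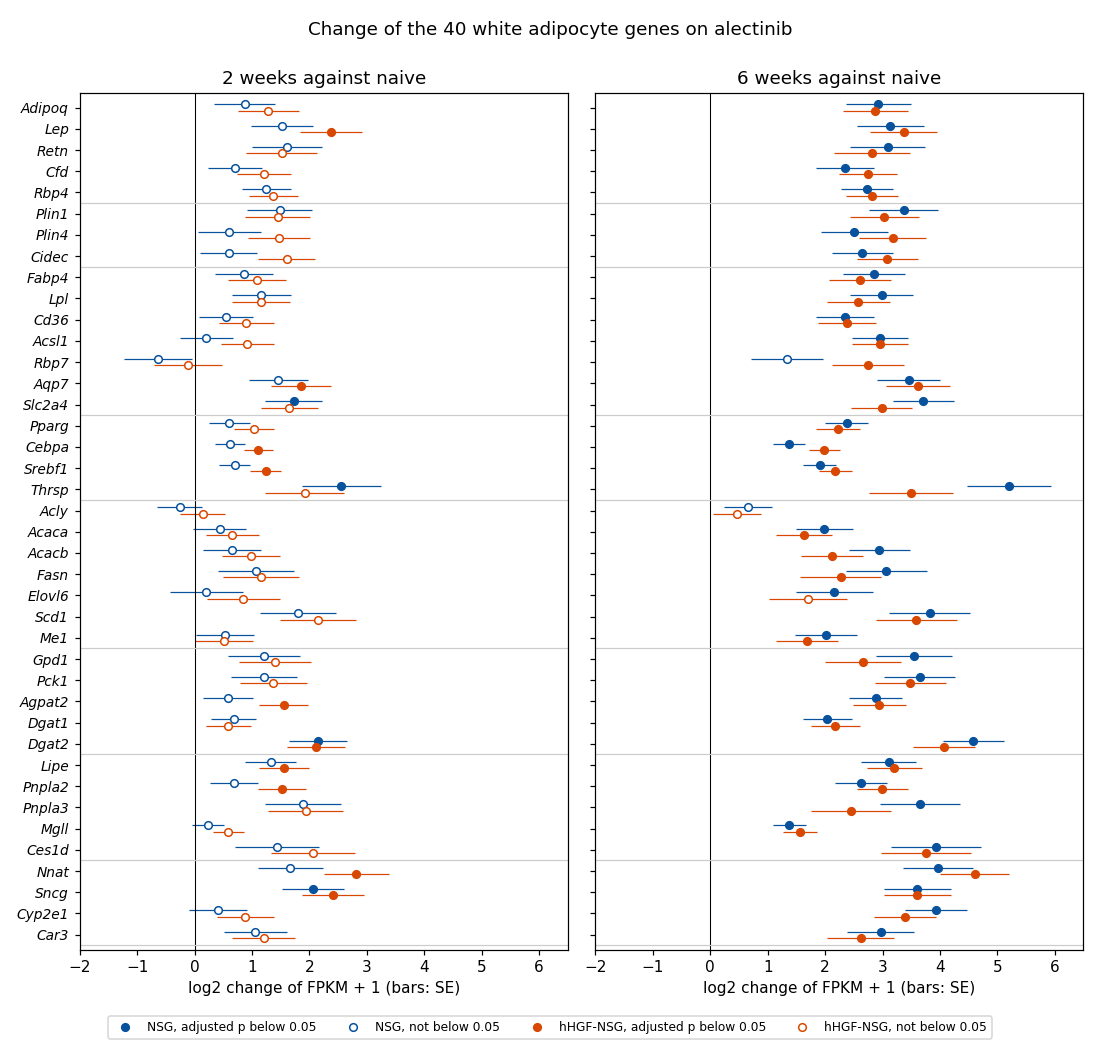
log2 change of FPKM + 1 against naive for each of the 40 genes, at 2 weeks (left) and 6 weeks (right), with bars of 1 SE, for NSG (blue) and hHGF-NSG mice (orange); filled points passed an adjusted p of 0.05 over all tested genes. At 2 weeks 4 and 10 points are filled, and at 6 weeks 38 and 38, the open ones being Acly and Rbp7 in NSG and Acly and Elovl6 in hHGF-NSG mice.

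Between 2 and 6 weeks all 40 log2 changes were positive in both hosts, which is not 40 independent results, as the members share libraries. In NSG mice 20 members were called higher, where 2.39% of all tested genes were, with a median log2 change of 1.92 over the 40. These were 5 of 7 uptake genes, 4 of 5 triglyceride synthesis genes, 3 of 5 lipolysis genes, 3 of 4 regulators, 2 of 4 other adipocyte genes, 1 of 5 secreted proteins (Adipoq), 1 of 3 droplet coat genes (Cidec) and 1 of 7 synthesis genes (Acacb). Of the 20 calls, 16 were lost in at least 1 of 25 refits. The 2-week and 6-week libraries of NSG mice overlapped for none of the 40 (no overlap upward in 10.1% of all tested genes). In hHGF-NSG mice 3 were called, Cyp2e1, Rbp7 and Acsl1, where 0.714% of all tested genes were called higher; the median log2 change was 1.45, and 15 members had no overlap, against 6.86% of all tested genes. The NSG count fell to 4, 5 and 8 without 6-week replicates 1, 2 and 3, to 5 without 2-week replicate 2 and to 13 without 2-week replicate 4. The hHGF-NSG count was 22 without hHGF-NSG 2-week replicate 3, 5 when the library labelled NSG naive replicate 1 was left out, and 0 without hHGF-NSG 2-week replicate 2 or 4 or 6-week replicate 2 or 3. On the recovered reads voom called 39 members higher in NSG and 23 in hHGF-NSG mice (4.28% and 2.44% of all tested genes), and without the filter on low values limma called 8 and 0. Shares of all tested genes are not given for the fits without a library or without the filter.

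The members' changes were set side by side between the hosts, which share no control library. At 6 weeks the log2 changes of the 40 members in NSG and in hHGF-NSG mice correlated with r = 0.80 across genes, and at 2 weeks with r = 0.84; genes that share libraries are not independent, and no test was made. The change was larger in hHGF-NSG mice for 32 of 40 members at 2 weeks and for 16 of 40 at 6 weeks. With the library labelled NSG naive replicate 1 left out it was larger for 20 and 10 of 40, and r was 0.76 at 2 weeks and 0.73 at 6 weeks. Levels leaned higher in hHGF-NSG mice in each state, for 36 of 40 members in naive, 40 of 40 in 2-week and 39 of 40 in 6-week tumours, with median log2 differences of 0.56, 0.94 and 0.48. The members rise and fall together between libraries, so these counts are not 40 independent results. The share of all tested genes that leaned this way is not given, and the naive count includes the library of uncertain host. None of these host differences passed the test by limma, where 0.042%, 0.371% and 0.252% of all tested genes were called in either direction. At an unadjusted p under 0.05 there were 3, 18 and 4 members, against 10.1%, 7.85% and 4.95% of all tested genes, and voom on the recovered reads called 0, 1 and 0, against 0%, 0.532% and 0.511%. Every hHGF-NSG library was above every NSG library for 1 member in naive tumours, Rbp4, for 0 at 2 weeks and for 10 at 6 weeks, against 4.8%, 2.13% and 7.36% of all tested genes. Those 10 were Lep, Retn, Cfd, Rbp4, Cidec, Rbp7, Cebpa, Scd1, Dgat1 and Dgat2. Leaving out the library labelled NSG naive replicate 1, the median naive difference was 0.92 and 0 members were called. Without it the 6-week response difference was called for 0 members, with 2 at an unadjusted p under 0.05, and the share of all tested genes is not given. With it the difference between the hosts in the 6-week response was called for 0 members by limma (0.007% of all tested genes), with 0 at an unadjusted p under 0.05 and 0 by voom. The widest was that of Thrsp (a log2 change of -1.70 ± 1.04 SE with adjusted p = 0.79).

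Libraries of 1 group differed from each other widely in these genes. The SD of log2(FPKM + 1) within a group had a median over the 40 members of 0.92, 0.65 and 0.21 in naive, 2-week and 6-week NSG mice, against 0.31, 0.27 and 0.23 over all tested genes. In hHGF-NSG mice the medians were 0.78, 0.94 and 0.53, against 0.31, 0.28 and 0.21. Only in the 6-week NSG group was the members' median below that of all tested genes, and no test was made of this. For the median member the highest library of a group was 3.70, 2.81 and 1.32 times the lowest in NSG and 3.07, 4.79 and 2.02 times in hHGF-NSG mice. The same libraries were at the ends for most members. In hHGF-NSG mice 2-week replicate 3 was highest for 40 of 40 and 2-week replicate 4 lowest for 38, naive replicate 1 was lowest for 37, and among 6-week libraries replicate 2 was highest for 36 and replicate 1 lowest for 37. In NSG mice naive replicate 4 was lowest for 36 and the library labelled NSG naive replicate 1 highest for 31, and 2-week replicate 2 was lowest for 34. The library lowest for most members also had the lowest mouse share of all reads in 3 of the 6 groups: hHGF-NSG naive replicate 1 (6.81%), 2-week replicate 4 (8.71%) and 6-week replicate 1 (24.3%). The library highest for most members had the highest mouse share in 2 of the 6 groups, the library labelled NSG naive replicate 1 (11.99%) and NSG 2-week replicate 3 (20.2%), and the lowest in the NSG 6-week group, replicate 1 (16.9%). The part of the mouse share in this spread was not tested.

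The members followed one another from library to library. Over the 20 libraries the Pearson correlation of log2(FPKM + 1) with Adipoq was 0.653 to 0.989 for the other 39 members, with a median of 0.954, and the median over the other 14247 tested genes was 0.06. After subtracting the group means it was 0.535 to 0.971 with a median of 0.874, against 0.03. These points share libraries, depth and scaling, and the values are descriptive. Within groups the genes nearest to Adipoq were Retn (0.971), Cfd (0.971), Car3 (0.963), Cd36 (0.958) and Pparg (0.957). The farthest were Acly (0.535), Srebf1 (0.555), Pnpla3 (0.602) and Rbp7 (0.608).

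Relative to Adipoq in the same library, some members still shifted between naive and 6 weeks. Of 39 ratios, 5 were higher at 6 weeks without overlap in both hosts, 3 were lower, and 16 overlapped in both. Of all tested genes other than Adipoq, these members included, 0.294% had a higher and 74.2% a lower ratio without overlap in both hosts. Adipoq itself rose, so a gene that stays level has a lower ratio, and these shares depend on that choice of divisor. The 5 members were Dgat2, Aqp7, Nnat, Sncg and Cyp2e1, whose mean ratios to Adipoq at 6 weeks were 3.19, 2.23, 2.03, 1.64 and 1.93 times the naive ones in NSG mice and 2.43, 3.08, 3.55, 1.65 and 1.43 times in hHGF-NSG mice. The 3 members were Acly, Cebpa and Mgll, at 0.185, 0.286 and 0.277 times in NSG and 0.193, 0.546 and 0.390 times in hHGF-NSG mice. Acly, Cebpa and Mgll are also made by cell types besides adipocytes, as is Fabp4. The part of those cells in the ratios was not tested. The ratios of Fabp4 and Lpl, both of lipid uptake, overlapped in both hosts, at 0.925 and 1.07 times in NSG and 0.812 and 0.823 times in hHGF-NSG mice. In NSG mice alone 13 ratios were higher and 7 lower, against 1.18% and 79.5% of all tested genes, and in hHGF-NSG mice 5 and 6, against 1.37% and 79.6%. The NSG numbers were 13 and 9, against 2.24% and 83.7%, when the library labelled NSG naive replicate 1 was left out. These were not tested, and naive libraries with few reads give uncertain ratios.

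**Figure D5:**
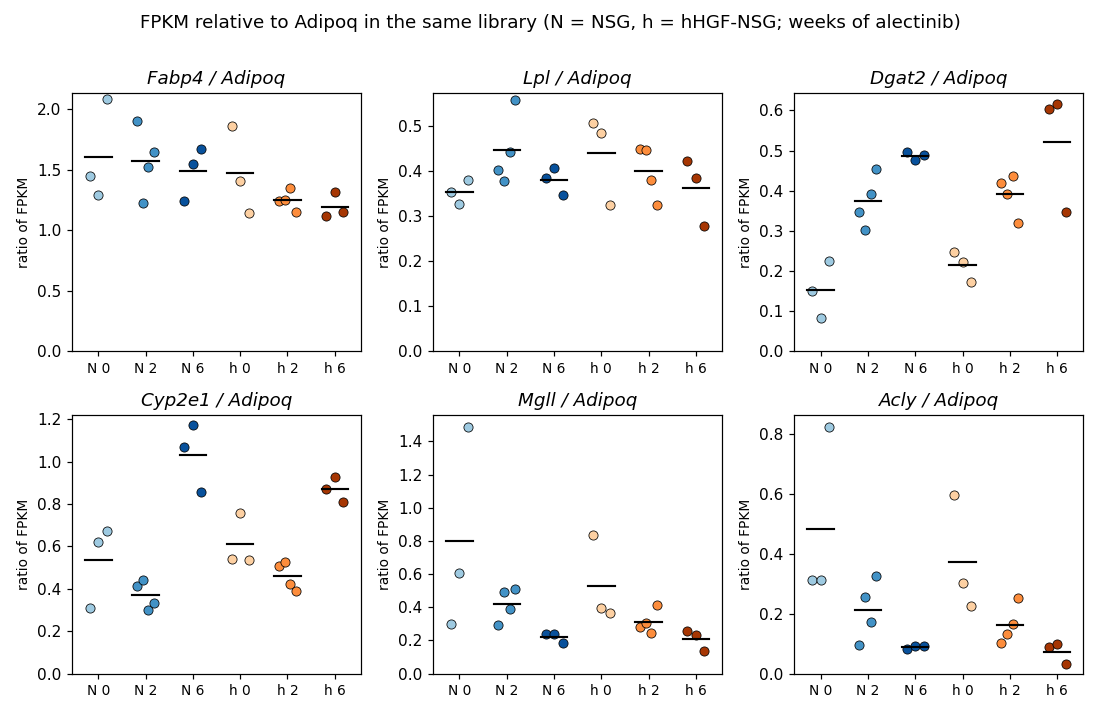
FPKM of 6 genes divided by the FPKM of Adipoq in the same library (vertical axes start at 0), by host (N for NSG, h for hHGF-NSG) and weeks of alectinib (0 is naive); points are libraries and lines are group means. Fabp4 and Lpl keep overlapping ratios, Dgat2 and Cyp2e1 are higher at 6 weeks than in any naive library of their host, and Mgll and Acly are lower.

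Outside the 40 members, a list of 36 other genes of adipocyte lipid handling and hormone response moved in the same direction in part. This list and the lists below, like the members, were chosen with earlier results of these data known. Their counts are therefore descriptive and give no independent support. At 6 weeks 19 rose and 3 fell in NSG mice, and 23 rose and none fell in hHGF-NSG mice, with list medians of 1.24 and 1.31 on the log2 scale. Of all tested genes 8.81% were called higher and 8.59% lower in NSG mice, and 9.67% and 8.12% in hHGF-NSG mice. At 2 weeks the counts were 3 and 5 in NSG and 8 and 0 in hHGF-NSG mice, with medians of 0.09 and 0.33. The 2-week shares of all tested genes were 3.32% and 4.48% in NSG and 3.49% and 3.56% in hHGF-NSG mice. Those that fell in NSG mice at 6 weeks were Fads2, Cebpb and Gpihbp1 (the first by -1.07 and the last by -0.97 on the log2 scale), and at 2 weeks also Insig1 and Fads1, all named after their values were seen; Gpihbp1 is made by capillary endothelium. Cidea, a droplet protein of thermogenic and some white fat, rose from 0.513 ± 0.888 to 35.2 ± 6.44 FPKM (mean ± SD, n = 3 and 3) in NSG mice (a log2 change of 4.72 ± 0.88 SE with adjusted p = 0.00112) and from 2.88 ± 4.99 to 38.8 ± 38.2 in hHGF-NSG mice (a log2 change of 3.73 ± 0.88 SE with adjusted p = 0.00615). Adrb3, the beta-3 adrenergic receptor of adipocytes, rose from 0.886 ± 1.01 to 36.6 ± 3.26 in NSG (a log2 change of 4.46 ± 0.60 SE with adjusted p = 7.76e-05) and from 3.29 ± 2.70 to 59.2 ± 33.4 in hHGF-NSG mice (a log2 change of 3.94 ± 0.60 SE with adjusted p = 0.00026), and had passed the test at 2 weeks in both. Adig, adipogenin, and Npr3, the natriuretic peptide clearance receptor, rose by log2 2.76 and 2.75 in NSG mice (adjusted p = 0.00182 and 3.32e-05). The NSG counts were 20 and 3 at 6 weeks and 3 and 3 at 2 weeks when the library labelled NSG naive replicate 1 was left out.

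Markers of thermogenic fat were present at lower levels. Of 10, 7 passed the filter, and at 6 weeks 4 rose in NSG (Cox8b, Cidea, Ucp1 and Otop1) and 2 in hHGF-NSG mice (Cox8b and Cidea), without any that fell. Of all tested genes 8.81% and 9.67% were called higher in these comparisons. Cidea is also in the list of other adipocyte genes and is counted in both. Ucp1, the uncoupling protein that defines thermogenic adipocytes, was at 0 in all naive libraries and at 5.19 ± 3.78 FPKM in NSG and 3.02 ± 4.65 in hHGF-NSG mice at 6 weeks. It thus passed the filter on low values only through treated libraries. Its call, included in the NSG count, is therefore not independent evidence of a rise over naive. The summed level of the 10 was 3.02 to 8.29 FPKM in naive and 160.0 to 179 in 6-week NSG tumours, and 2.17 to 27.0 and 96.1 to 262 in hHGF-NSG tumours. In NSG mice 3 of the 7 rose with the library labelled NSG naive replicate 1 left out. Zic1, a marker of classical brown fat, was at 0 in all 20 libraries.

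Other cell types moved differently, and their part in the members' changes was not tested. For comparison, 8.81% of all tested genes were called higher and 8.59% lower at 6 weeks in NSG mice. In hHGF-NSG mice these shares were 9.67% and 8.12%. Of 11 adipose progenitor markers tested, 3 rose at 6 weeks in NSG (Wnt2, Zfp423 and Pdgfra) and 1 in hHGF-NSG mice (Zfp423), with list medians of 0.25 and 0.07 on the log2 scale. The 1 of 11 in hHGF-NSG mice was near the share of all tested genes. Of 10 endothelial markers, 6 fell in NSG mice at 6 weeks, Cdh5 most (a log2 change of -1.49 ± 0.19 SE with adjusted p = 3.99e-05), while in hHGF-NSG mice 3 fell and Cldn5 rose. Their summed level was 303 to 438 FPKM in naive and 193 to 225 in 6-week NSG tumours, and 279 to 334 and 225 to 336 in hHGF-NSG tumours. Of 10 macrophage markers 2 fell in NSG (Mrc1 and Adgre1) and 3 in hHGF-NSG mice, where Csf1r fell too, and none rose. Of 10 fibroblast markers 3 rose in NSG (Fbln1, Dcn and Pdgfra) and 2 in hHGF-NSG mice (Fbln1 and Dcn). Pdgfra is in both the fibroblast and the progenitor list and is counted in each. Gpihbp1 is likewise in both the endothelial list and the list of other adipocyte genes. The summed fibroblast level was 4998 to 10945 FPKM in naive and 5252 to 7540.4 in 6-week NSG tumours, which overlap, and 6500.2 to 8558 and 4656 to 5406 in hHGF-NSG tumours, where every 6-week library was below every naive one. The summed macrophage level was 5312 to 5498 FPKM in naive and 5231 to 6597 in 6-week NSG tumours; with hHGF the naive range was 4074 to 6115 and the 6-week range 4365 to 5681. With the library labelled NSG naive replicate 1 left out the NSG 6-week counts were 2 progenitor and 2 fibroblast markers higher, and 7 endothelial, 1 macrophage and 1 fibroblast marker lower.

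Markers of muscle, liver, skin and nerve were low beside the members, and their part in the members' changes was not tested either. Of 10 skeletal muscle markers 3 passed the filter, and none was called at 6 weeks. Their summed level was 2.17 to 52.9 FPKM in naive and 3.30 to 6.02 in 6-week NSG tumours, and 1.60 to 1.98 and 4.40 to 14.9 in hHGF-NSG tumours, where it was thus higher at 6 weeks without overlap. Tnnc2 was at 0 in all groups. Of 7 hepatocyte markers only Alb was tested, and it rose to 4.02 ± 0.996 FPKM in NSG (a log2 change of 1.95 ± 0.29 SE with adjusted p = 0.000181) and 4.73 ± 0.653 in hHGF-NSG mice (a log2 change of 2.12 ± 0.29 SE with adjusted p = 0.000113), whereas Serpina1c and Ttr, defining hepatocyte genes, were at 0 in all groups. The summed hepatocyte level was 0 to 0.574 FPKM in naive and 3.26 to 5.06 in 6-week NSG tumours, and 0 to 0.816 and 3.98 to 5.91 in hHGF-NSG tumours. Alb was thus under the filter's 1 FPKM in every naive library and passed it only through treated ones. Its call is therefore not independent evidence of a rise over naive. Of 8 skin epithelium markers Krt14 fell from 15.4 ± 7.30 to 0.653 ± 0.523 FPKM in NSG mice (a log2 change of -3.25 ± 0.40 SE with adjusted p = 3.32e-05) and from 14.9 ± 7.99 to 1.04 ± 0.631 in hHGF-NSG mice (a log2 change of -2.87 ± 0.40 SE with adjusted p = 0.000143). The 7 sebaceous gland markers summed to 13.7 to 19.8 FPKM in naive and 11.3 to 12.9 in 6-week NSG tumours; with hHGF the naive range was 13.4 to 15.2 and the 6-week range 10.6 to 12.9. The 6 Schwann cell markers summed to 10.3 to 27.6 FPKM in naive and 7.98 to 15.6 in 6-week NSG tumours; with hHGF the naive range was 8.84 to 34.5 and the 6-week range 16.1 to 35.7. None of the sebaceous or Schwann markers tested was called at 6 weeks (limma).

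The human tumour cells carry the counterparts of all 40 members, and the same tumours gave values for them in the human table, with 4 libraries in each NSG group. For 12 members (Adipoq, Lep, Retn, Rbp4, Plin1, Fabp4, Cd36, Rbp7, Slc2a4, Thrsp, Pck1 and Car3) the human gene had at most 20 reads in any library. The other 28 did not move 1 way: at 6 weeks every NSG library was above every naive one for 7 human counterparts and below for 13, and in hHGF-NSG tumours for 8 and 13. The share of all human genes that did so was not computed, so these counts say nothing about the counterparts as a set. Among the higher ones in both hosts were the counterparts of Agpat2, Pnpla2, Dgat2 and Nnat. Human AGPAT2 was at 46.5 ± 12.4, 86.2 ± 12.8 and 71.8 ± 12.6 FPKM in naive, 2-week and 6-week NSG tumours, and PNPLA2 at 23.2 ± 4.98, 43.7 ± 5.01 and 36.6 ± 6.63 (mean ± SD, n = 4 each). Among the lower ones in both hosts were those of Scd1, Fasn, Acaca, Acly and Me1. Human SCD was at 184 ± 39.9, 5.23 ± 1.55 and 3.52 ± 0.625 in the same groups, while mouse Scd1 averaged 377 ± 353, 1081 ± 557 and 3885 ± 465 (n = 3, 4 and 3). Human FASN was at 119 ± 34.8, 17.6 ± 2.77 and 9.47 ± 1.98, against 31.6 ± 28.5, 60.5 ± 37.8 and 212 ± 44.7 for mouse Fasn. Human ACLY was at 40.99 ± 4.05, 14.4 ± 2.40 and 13.4 ± 0.443, against 29.9 ± 10.8, 25.5 ± 11.1 and 45.9 ± 4.45 for mouse Acly, which passed no test. In hHGF-NSG tumours human SCD was at 169 ± 26.5, 4.55 ± 1.48 and 4.51 ± 1.52. The human values are set beside the mouse ones without a test. The sources used here do not say how human and mouse reads were told apart, so a share of human reads in the naive values of mouse Scd1, Fasn and Acly was not tested.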

How the data were processed

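RNA of 22 xenograft tumour samples was sequenced, and 20 of them have mouse columns used here. The deposited tables give FPKM values, which the authors made with tools whose roles no label states: hg38, GRCh38, mm10 and DESeq2 are named, per the submitters' processing notes. The aligner, the annotation and the separation of species remain not given in the sources used here. Each FPKM value divided by what 1 read is worth came out whole (100% within 0.05), so reads per gene and library totals (895826 to 5766509 mouse reads) were recovered and used for shares and for voom.

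Tests used log2(FPKM + 1), which understates changes of low genes, on 14287 genes with at least 1 FPKM in 3 or more libraries. A model with 1 mean for each of the 6 groups was fitted by limma 3.58.1 (R 4.3.3) with a mean-dependent prior variance. Tests were two-sided, Benjamini-Hochberg adjusted over all tested genes, with a threshold of 0.05. Alternatives were a pseudocount of 0.1, no filter, median-ratio rescaling, the replicate number as a block, voom on the recovered reads and leaving out each library. For 6 weeks against naive, voom called 998 genes higher and 1219 lower in NSG and 1382 and 1427 in hHGF-NSG tumours, against 1259 and 1227, and 1381 and 1160, by limma on FPKM. On simulated data for 6 weeks against naive in NSG mice (14005 genes), 98% and 100% of genes changed by log2 -2 and 2 and 28% and 38% of those changed by -1 and 1 were called. Of 153 calls 21 (13.7%) were false, above the threshold of 0.05 (4 of 135 among genes with a mean of at least 20 reads). The simulation gave every gene the same relative spread between libraries. The members' median SD of log2(FPKM + 1) in naive NSG mice was 0.92, against 0.31 over all tested genes. These rates were thus not measured at the members' spread.

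The members and all other lists were chosen with earlier results of these data known. Values in every library are given for members called in any comparison and for the leading genes of each role. Genes of other lists are given by counts with up to 4 named by rule: the called ones with the largest change. Further genes were named after their values were seen. They were the genes of adipocyte lipid handling and hormone response that fell, and markers at 0 in every group. Same-numbered samples of different groups did not deviate together (correlations of -0.132 to 0.107 over 43 pairs, 1 above 0.1), so the numbers were not taken to pair samples. Replicates differed by more than sampling noise, with a chi-square per degree of freedom of at least 3.95 over 24 pairs.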

Additional observations from a re-analysis of the deposited data

Results flagged for a closer look

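Groups of 4 libraries, 80 in all for the 40 genes (2-week tumours of both hosts), were screened with Dixon's ratio, the gap between an end library and its neighbour divided by the whole range, against the critical value for 95% confidence. In 6 of them 1 library stood apart, where chance gives about 1 in 20 groups. The 6 of 80 are near that rate, and the groups share libraries, so they are not independent. The flagged values are listed as description only.

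In hHGF-NSG mice at 2 weeks the highest library was replicate 3 each time. Its Acly was 85.6 FPKM against 30.6 to 33.3 in the other 3 libraries (ratio 0.952). Elovl6 was 13.7 against 2.80 to 4.23 (ratio 0.869), Me1 was 96.96 against 20.4 to 31.9 (ratio 0.850), and Fasn was 354 against 76.9 to 124 (ratio 0.830). That library was the highest of its group for 40 of 40 members.

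In NSG mice at 2 weeks the lowest library was replicate 2 each time. Its Car3 was 230.1 FPKM against 578 to 605 (ratio 0.927), and its Slc2a4 was 2.44 against 9.27 to 10.6 (ratio 0.842).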

How the results depend on the processing

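The 6-week calls held in number: 36 to 38 members in NSG and 32 to 39 in hHGF-NSG mice over libraries left out, with no member reversed under any alternative. Of the 38 called members, 35 in NSG and 32 in hHGF-NSG mice passed in every refit, and Acaca, Elovl6 and Me1, and Acaca, Acacb, Fasn, Gpd1, Me1 and Pnpla3, were lost at least once. The 2-week counts, 4 in NSG and 10 in hHGF-NSG mice, were 1 and 6 without the filter and 0 to 8 and 1 to 17 over libraries left out, and voom called 2 in NSG mice. Between 2 and 6 weeks the counts of 20 and 3 became 8 and 0 without the filter, 39 and 23 with voom, and 4 to 30 and 0 to 22 over libraries left out. The host difference at 2 weeks had 0 members by limma and 1 by voom. More genes are tested without the filter, and the cause of the other shifts was not tested. Apart from voom, shares of all tested genes called are not given for these refits. Shifts in the members' counts thus cannot be told from shifts in the whole table. With the replicate number as a block, the counts were 5 and 16 at 2 weeks, 37 and 38 at 6 weeks and 9 and 2 between 2 and 6 weeks. Of 86 comparisons of a library with another group, 20 correlated best with the library of its own number, so the block is no evidence of pairing. Depth limits the naive values most: the median member had 43 to 236.5 reads in naive NSG and 49.5 to 329.5 in naive hHGF-NSG libraries, against 1301.5 to 1579 and 2077 to 4883.5 at 6 weeks, with counts of 0 for Thrsp, Pnpla3 and Aqp7 in 1 naive library each.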
